A study of Sus scrofa with 22 samples.

Results

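The 37 genes described here follow the cerebellar granule cell from dividing precursor to mature neuron and include the receptors and transcription factors of the Hedgehog pathway. They were listed by name, with earlier results of these data known, and all 37 were found in the count tables, among 31907 gene identifiers. Counts came from the cerebellum of 22 piglets (Sus scrofa), 1 library per animal. BDL animals (7 female, 4 male) had the bile duct tied off at 8 days of age, which stops bile from leaving the liver, and SHAM animals (5 female, 6 male) had a sham operation at the same age. All were followed for 3 weeks, and no strain, genotype or drug is given in the labels. By their roles the genes were read as 4 precursor regulators, 6 Hedgehog receptors and transducers, 5 genes of migrating or newly postmitotic cells, 12 lineage transcription factors of several stages, and 10 genes of the mature granule neuron. The first 2 of these roles, 10 genes, are called the precursor side, and the last, 10 genes, the mature side.

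Granule cells are the most numerous neurons of the cerebellum. Their precursors divide in a layer at the cerebellar surface, where Sonic hedgehog released by Purkinje cells binds PTCH1, frees SMO and switches on GLI transcription factors and the growth regulator MYCN. Cells that leave the cycle turn down ATOH1, migrate inward past the Purkinje cells, and become glutamatergic neurons whose parallel fibres contact Purkinje cell dendrites. Part of this takes place around and after birth.

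Libraries held 14811464 to 20046909 gene counts, and values below are CPM, each gene's share of the library's counts on a common scale after TMM scaling. Levels are not corrected for gene length, so they are compared between animals and never between genes. The tissue carried cerebellar markers: CALB1 of Purkinje cells had a median of 394 CPM in BDL and 400 in SHAM. Of 11 genes of brainstem and forebrain, 2 passed the count filter: BARHL2, a homeobox gene, at 48.2 to 68.2 CPM and SLC6A4, the serotonin transporter, at 0.656 to 2.53. Among the rest, HOXB5 was at 0 in every library, EMX1 had at most 2 counts, HOXA3 had counts in 8 libraries and HOXB3, a gene of the caudal hindbrain, in 21, up to 1.33 CPM in SHAM 9. Animals are named by group and a number in the order of deposition, which pairs nothing. BDL 2, BDL 4 and BDL 8, all female, stood apart from the other 19 on the first principal component, which held 14.8% of the variance, with scores of 38.0, 29.3 and 27.4 against -24.5 to 15.2. In these 3 libraries genes with a genomic span of at least 200 kb were low as a class. Many values below are given with and without these libraries, a set chosen after seeing the data. Estimates near 0 that changed sign without them stand in the closing section. The labels do not say whether animals shared a litter.

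No granule lineage or Hedgehog gene differed between BDL and SHAM animals by edgeR's quasi-likelihood test with sex in the model. Of the 37 members, 0 had a Benjamini-Hochberg adjusted p under 0.05, and the same was true of all 14994 genes tested (0%). At an unadjusted p under 0.05 stood 3 members, CALB2, CADPS2 and CNTN1, all on the lower side in BDL and all of the mature neuron. Among all genes 4.96% reached that level, and 2.72% of all genes did so on the lower side, so the count of 3 in 37 is not read as a result about these genes. On the same 14994 genes limma-voom called 0, and DESeq2 called 1, TPD52L1, which is not a member. Log2 fold changes of the 37 ran from -0.32 to 0.14 with a median of -0.03, beside 0.0007 over all genes. All 37 passed the count filter.

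The precursor side had 6 members higher and 4 lower in BDL (median log2 fold change 0.02), and the mature side 3 higher and 7 lower (median -0.08). Among all genes 49.7% were on the lower side. The Hedgehog genes split 4 higher and 2 lower, the precursor regulators 2 and 2, the migrating cell genes 1 and 4, and the lineage factors 5 and 7. In a model of the 4 groups of sex and treatment, the precursor side in females split 5 and 5 and the mature side 2 and 8. In males both sides split 3 higher and 7 lower, so the sides differed in females only. In this whole tissue, fewer cells of a kind and less RNA per cell cannot be told apart. The CPM ranges of the groups overlapped for all 37 members, as for every gene tested (0% without overlap).

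**Figure D1:**
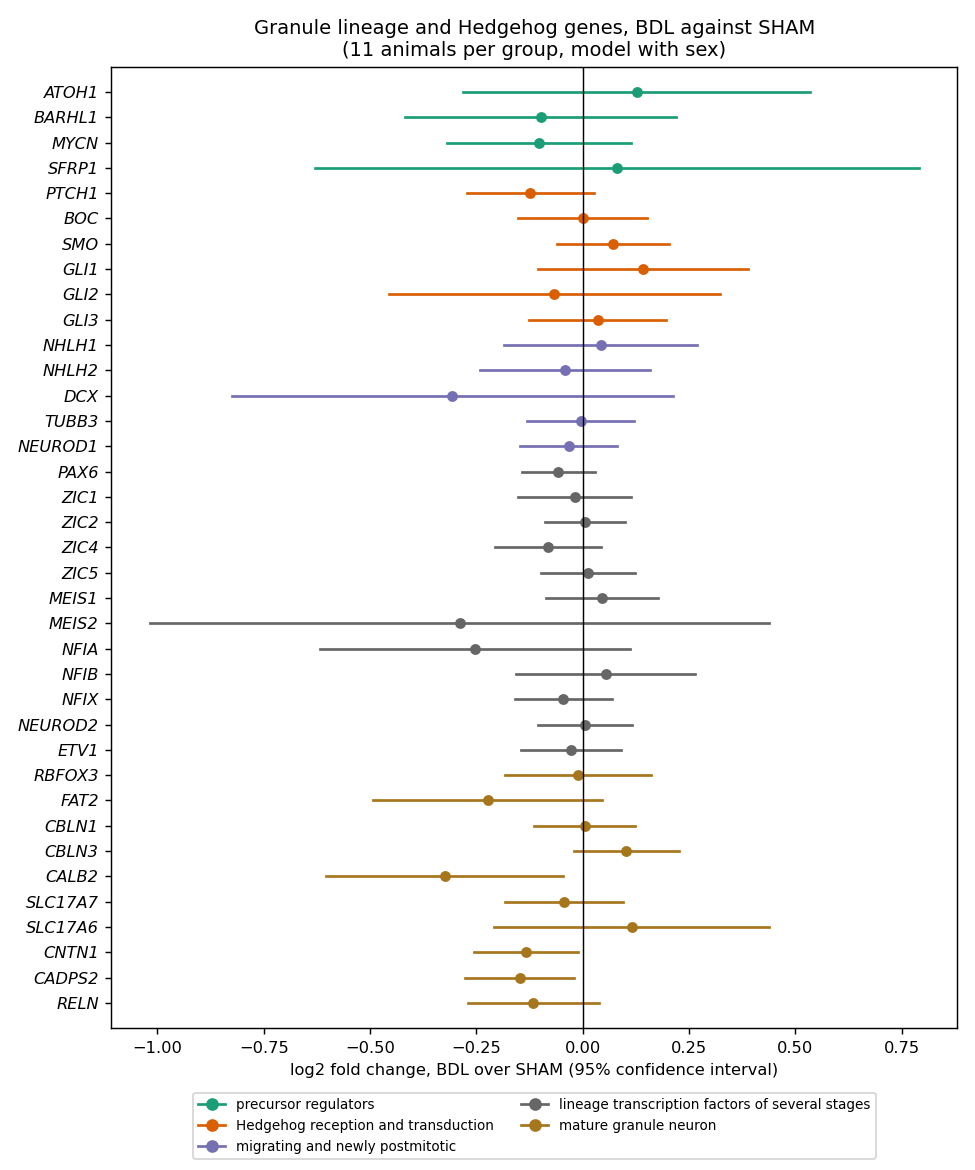
Log2 fold change of BDL over SHAM for each of the 37 genes, coloured by role, from the model with sex; points are estimates and lines 95% confidence intervals (11 animals per group). Estimates lie between -0.32 and 0.14, and the intervals of CALB2, CADPS2 and CNTN1 alone leave out 0 before adjustment; MEIS2, SFRP1 and DCX have the widest.

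The intervals bound how large a difference could have been. The 95% confidence interval lay inside a 1.25-fold change in either direction for 26 of 37 members, beside 63.6% of the 14994 tested. For 1.5-fold the count was 32 (87.1%) and for 2-fold 36 (98.1%). The 5 outside 1.5-fold were SFRP1, DCX, MEIS2, NFIA and CALB2, and only MEIS2 was outside 2-fold. MEIS2 had 3 to 43 counts per library, so its level is poorly measured.

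Among the precursor regulators, ATOH1, the transcription factor that defines and maintains granule precursors, had counts in every animal. It lies on chromosome 8 at 125768232 to 125770619 (Sscrofa11.1). Its lowest, median and highest CPM were 2.86, 3.39 and 6.20 in BDL and 2.29, 3.59 and 7.71 in SHAM. The highest value was that of SHAM 4 and the lowest that of SHAM 10, so the SHAM range enclosed the BDL range. Means were 4.09 ± 1.26 and 3.85 ± 1.52 (SD, n = 11 each), a log2 fold change of 0.13 ± 0.20 (SE; adjusted p = 0.933), with 5 of 11 BDL animals above the SHAM mean. The log2 fold change without BDL 2, 4 and 8 was 0.06 ± 0.21. Its counts were 44 to 140 per library.

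MYCN, the Hedgehog-responsive growth regulator of dividing precursors, ran from 12.8 to 25.4 CPM in BDL with a median of 18.6, and from 16.3 to 28.1 in SHAM with a median of 19.6. The lowest animal was BDL 4 and the highest SHAM 4, and 9 of 11 BDL animals lay below the SHAM mean. The SHAM median was also below that mean of 20.2, so most SHAM animals lay below it too. The difference was -0.10 ± 0.10 (adjusted p = 0.902), and -0.04 ± 0.10 without BDL 2, 4 and 8. BARHL1, a homeobox factor downstream of ATOH1, had 30.8 to 60.0 CPM in BDL and 35.1 to 87.6 in SHAM (-0.10 ± 0.15, and -0.15 ± 0.17 without the 3 libraries). SFRP1, a secreted modulator of Wnt signalling, was at 46.1 CPM in BDL 4 and at 5.99 to 21.6 CPM in the other 21 libraries. Its log2 fold change was 0.08 ± 0.34 with BDL 4 and -0.24 without it.

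BDL 4 was also the highest of the 22 libraries for genes of the choroid plexus, TTR at 1393 CPM, KCNJ13 at 34.7, CLIC6 at 29.7 and AQP1 at 7.45. The next highest libraries for SFRP1 were BDL 1 (21.6 CPM), SHAM 2 (20.1) and SHAM 10 (19.9). In those libraries TTR reached 737 CPM (BDL 1), 2.51 (SHAM 2) and 862 (SHAM 10). Of the choroid plexus and meninges list 9 of 10 genes had an identifier and 8 were tested, 3 higher and 5 lower in BDL, and none was at 0 in every library. The summed level was 220 to 1847 CPM in BDL and 240 to 1126 in SHAM, and its part in the values of SFRP1 was not tested.

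The Hedgehog genes gave no common direction. PTCH1, which encodes the Hedgehog receptor and is itself a target of the pathway, lies on chromosome 10 at 26627165 to 26703225. Its CPM was 73.3, 87.1 and 101 in BDL (lowest, median, highest) and 82.4, 91.2 and 130 in SHAM. The SHAM maximum was SHAM 1, well above the next SHAM animal, and 8 of 11 BDL animals lay below the SHAM mean. The SHAM median was below that mean as well, so most SHAM animals also lay below it. Means were 87.1 ± 9.5 and 94.6 ± 13.3, a log2 fold change of -0.12 ± 0.07 (p = 0.103, adjusted p = 0.881). Without BDL 2, 4 and 8 it was -0.06.

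GLI1, the transcription factor usually taken as the readout of Hedgehog activity, is on chromosome 5 at 22736325 to 22747421. It ran from 5.06 to 9.05 CPM in BDL (median 6.20) and from 4.05 to 7.21 in SHAM (median 6.49). The means were 6.67 ± 1.23 and 6.11 ± 1.14, a log2 fold change of 0.14 ± 0.12 (adjusted p = 0.881). Above the SHAM mean lay 7 of 11 BDL animals, and also most SHAM animals, whose median was 6.49. So PTCH1 was on the lower and GLI1 on the higher side, and neither passed the test. The annotated spans of GLI1 and ARHGAP9 overlap. Whether their exons overlap was not examined, and the sources used here do not give the strand setting of the counting. Whether the overlap touched the counts of GLI1 is therefore not known. The same holds for BOC, NFIX, CADPS2, CBLN3 and MEIS2, which overlap other protein-coding genes, for PTCH1, ZIC4, DCX and NFIA, which overlap long noncoding RNAs, and for MYCN, ETV1 and CNTN1, which overlap pseudogenes.

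SMO, the transducer that PTCH1 holds in check, had 33.6, 36.7 and 43.5 CPM in BDL and 29.3, 34.6 and 44.4 in SHAM (0.07 ± 0.06, adjusted p = 0.887), and 7 of 11 BDL animals were above the SHAM mean. BOC, a co-receptor for Sonic hedgehog, averaged 61.8 ± 6.5 CPM in BDL and 61.6 ± 8.3 in SHAM. GLI2, the main activator, had 3.25 to 8.86 CPM in BDL and 3.39 to 10.02 in SHAM (-0.07 ± 0.19, and 0.02 ± 0.21 without BDL 2, 4 and 8). GLI3, the main repressor, had 12.3 to 19.04 and 13.1 to 18.2 (0.04 ± 0.08). All 4 overlapped between the groups over most of their range.

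The rest of the pathway was read from lists that hold none of these genes. Of 11 other ligands, receptors and inhibitors 9 had an identifier and 7 passed the count filter, with 5 higher, 2 lower, 0 called and 0 at an unadjusted p under 0.05. SHH, the ligand itself, averaged 2.03 ± 0.38 CPM in BDL and 2.02 ± 0.59 in SHAM from 20 to 51 counts per library (0.02 ± 0.17). The other ligand genes were below measurement, with 0 counts of IHH in every library and at most 8 of DHH. HHIP, a target that binds and blocks the ligand, had a log2 fold change of 0.19 ± 0.19, and 0.34 ± 0.18 without BDL 2, 4 and 8. In the model of the 4 groups of sex and treatment HHIP was at -0.19 ± 0.24 in females and 0.64 ± 0.26 in males, a difference of -0.82 ± 0.35 (p = 0.0295, adjusted p = 0.917). This split of HHIP was not set beforehand, and 4.60% of all genes had an unadjusted p under 0.05 for such a difference. It is not read as a result. HHAT, which attaches the ligand's palmitate, was at 0.13 ± 0.13. Without the 3 libraries this list had 3 higher and 4 lower. Of 19 measured genes of transduction and cilia, 8 were higher and 11 lower, with 0 called. The smallest p values there belonged to GSK3B, a kinase that marks GLI proteins for processing (-0.14 ± 0.06, p = 0.0249), and EVC2, a ciliary partner of SMO (0.25 ± 0.12, p = 0.0574). GSK3B was at -0.07 ± 0.05 (p = 0.180) and EVC2 at 0.27 ± 0.13 (p = 0.0479) without BDL 2, 4 and 8, and the split was 11 higher and 8 lower.

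**Figure D2:**
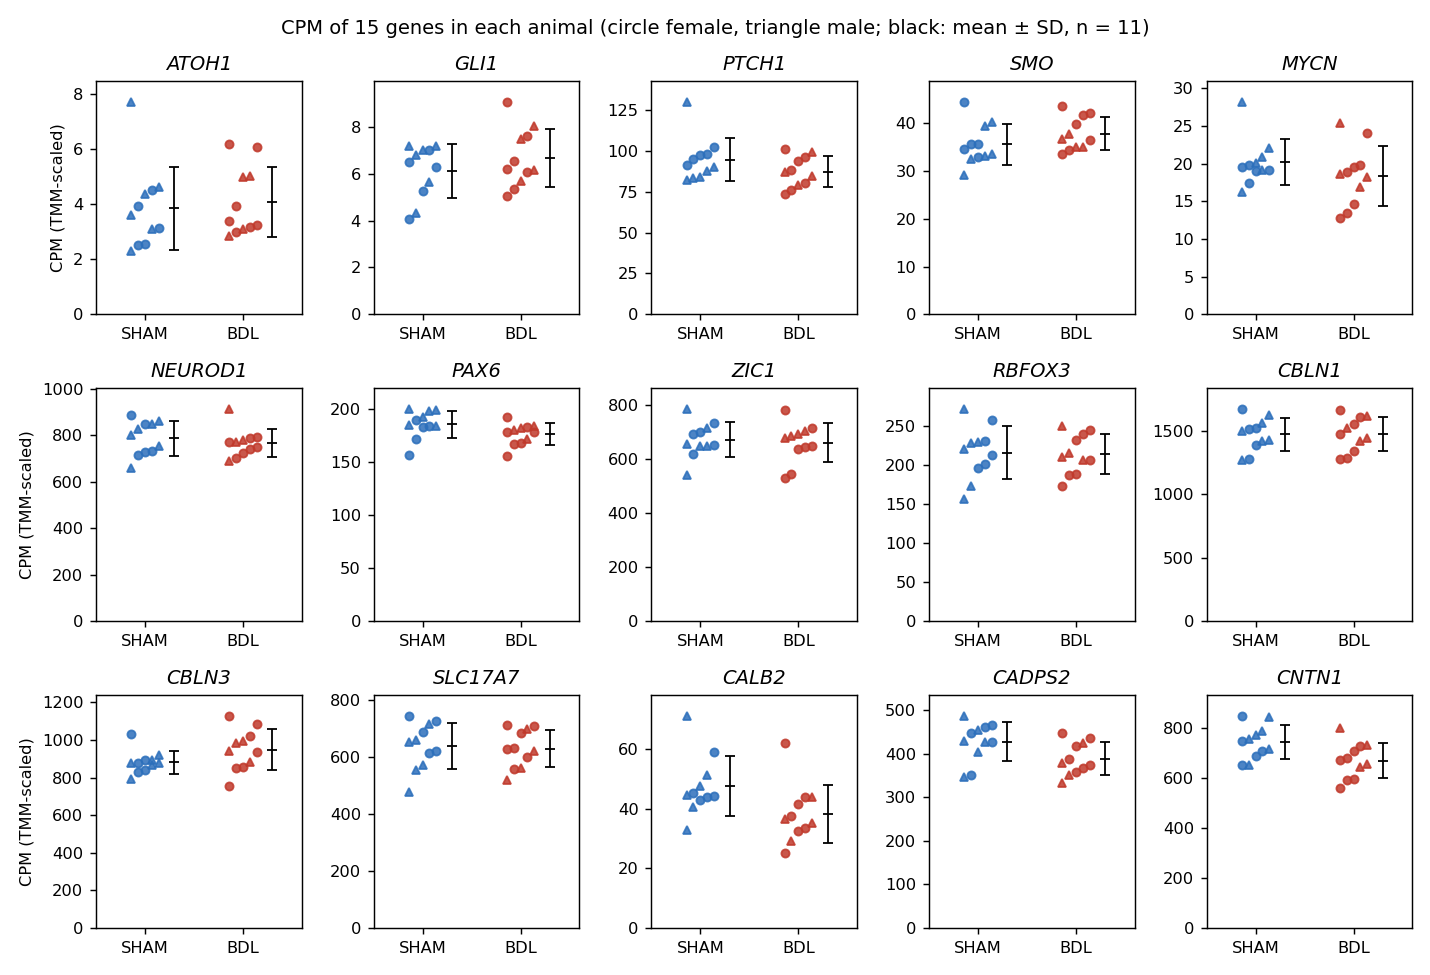
CPM of 15 of the genes in each animal, SHAM in blue and BDL in red, circles for females and triangles for males; black marks give mean ± SD (n = 11), and every axis starts at 0. The groups overlap in every panel. ATOH1 shows SHAM 4 alone at 7.71 CPM, and PTCH1 shows SHAM 1 alone at 130. Most BDL points of CALB2, CADPS2 and CNTN1 lie below the SHAM mean, as do most SHAM points of CALB2.

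Genes that mark dividing cells were read beside the precursor side. Of 10 measured cell cycle genes, 6 were higher and 4 lower in BDL, with 0 called and 1 at an unadjusted p under 0.05. MCM6, a subunit of the replicative helicase, averaged 99.0 ± 14.0 CPM in BDL and 113 ± 13 in SHAM (-0.18 ± 0.08), and AURKB, a mitotic kinase, had a log2 fold change of 0.17 ± 0.14. MCM6 was at -0.15 ± 0.07 (p = 0.0568) and AURKB at 0.08 ± 0.15 without BDL 2, 4 and 8. TOP2A, a topoisomerase of cycling cells, had 23.4 to 45.4 CPM in BDL and 22.2 to 58.0 in SHAM (-0.09 ± 0.16, and -0.03 ± 0.16 without the 3 libraries).

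The genes of migrating and newly postmitotic cells were on the lower side in 4 of 5 cases. NEUROD1, which drives exit from the cycle and granule differentiation, had 687, 770 and 912 CPM in BDL and 657, 800 and 888 in SHAM (chromosome 15, 87175629 to 87179953). Its means were 765 ± 60 and 787 ± 74 (-0.03 ± 0.06, adjusted p = 0.938). TUBB3, a neuronal tubulin, was at 637 ± 60 and 639 ± 61 CPM. NHLH1 and NHLH2, transient factors of early postmitotic neurons, had log2 fold changes of 0.04 ± 0.11 and -0.04 ± 0.10, and of 0.11 ± 0.09 and -0.01 ± 0.10 without BDL 2, 4 and 8.

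DCX, the microtubule-binding protein of migrating neurons, had the largest estimate of this role, -0.31 ± 0.25 (adjusted p = 0.881). It ran from 9.28 to 38.6 CPM in BDL with a median of 18.6, and from 13.9 to 38.6 in SHAM with a median of 26.3. The lowest 3 of 22 values, 9.28, 9.90 and 10.7 CPM, were those of BDL 8, BDL 4 and BDL 2. Without these libraries the log2 fold change was -0.07 ± 0.20. A list of other migration genes, 13 of them measured, had 5 higher and 8 lower, with 0 called and 1 at an unadjusted p under 0.05. That was PLXNA2, a semaphorin receptor, at 69.2 ± 7.8 CPM in BDL and 82.4 ± 11.4 in SHAM (-0.26 ± 0.07, p = 0.00159, adjusted p = 0.881). TIAM1, an activator of Rac, was at -0.12 ± 0.07. Without the 3 libraries PLXNA2 was at -0.22 ± 0.08 (p = 0.0101) and TIAM1 at -0.15 ± 0.07 (p = 0.0414), neither called.

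Most lineage transcription factors had estimates near 0, and the largest were those of MEIS2 (-0.29 ± 0.35, and -0.05 ± 0.34 without BDL 2, 4 and 8) and NFIA. PAX6, present from precursor to mature granule cell, had 155, 178 and 192 CPM in BDL and 157, 185 and 200 in SHAM (chromosome 2, 28971565 to 29001149). The ranges nearly coincided. Below the SHAM mean of 185.6 lay 10 of 11 BDL animals, and also most SHAM animals, whose median was 185.0. The log2 fold change of PAX6 was -0.06 ± 0.04 (p = 0.186, adjusted p = 0.881). ZIC1, a zinc finger factor of the whole lineage, had 532, 679 and 781 CPM in BDL and 540, 656 and 786 in SHAM (-0.02 ± 0.06, adjusted p = 0.974). ZIC4, its neighbour on chromosome 13 with 45 bp between the annotated genes, had 373, 441 and 491 CPM in BDL and 380, 467 and 548 in SHAM (-0.08 ± 0.06, p = 0.191). How reads at the narrow gap between these 2 genes were counted was not examined. ZIC2, ZIC5 and NEUROD2 were at 0.01 each, and ETV1 and NFIX at -0.03 and -0.05.

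NFIA, a nuclear factor I gene that promotes granule maturation, had 21.8, 48.6 and 71.7 CPM in BDL and 40.7, 54.3 and 85.5 in SHAM. The 3 lowest animals were BDL 2, BDL 8 and BDL 4 at 21.8, 25.3 and 29.0 CPM, and no other library was below 40.7. The log2 fold change was -0.25 ± 0.18 (p = 0.162, adjusted p = 0.881) with them and -0.05 ± 0.12 without. Its paralogs NFIB and NFIX were at 0.05 ± 0.10 and -0.05 ± 0.06. MEIS1, a homeobox partner of PAX6, was at 0.05 ± 0.06. Without the 3 libraries NFIB was at -0.02 ± 0.10 and MEIS1 at -0.02 ± 0.06.

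The mature side held the members with the smallest p. CALB2 encodes calretinin, a calcium-binding protein of granule cells that unipolar brush cells also make (chromosome 6, 14392220 to 14420663). Its lowest, median and highest CPM were 25.2, 36.5 and 62.1 in BDL and 32.8, 44.6 and 71.2 in SHAM. All but 1 of the 11 BDL animals were below the SHAM mean, yet BDL 8 reached 62.1 and the ranges overlapped. The SHAM median of 44.6 was also below the SHAM mean of 47.6, so most SHAM animals were below it too. Means were 38.3 ± 9.8 and 47.6 ± 10.1 (SD), a log2 fold change of -0.32 ± 0.13 (SE, p = 0.0242, adjusted p = 0.881). Without BDL 2, 4 and 8 it was -0.35 ± 0.12 (p = 0.00681), again without a call. EOMES, the defining factor of unipolar brush cells, was on the other side, at 96.1 ± 20.8 CPM in BDL and 82.6 ± 18.1 in SHAM (0.19 ± 0.13), and 4 of the 5 measured genes of unipolar brush cells and deep nuclei were higher. The summed level of that list was 349 to 435 CPM in BDL and 342 to 436 in SHAM.

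CADPS2, a protein of dense-core vesicle release at parallel fibres, lies on chromosome 18 at 24372547 to 24867287. It had 334, 379 and 447 CPM in BDL and 347, 430 and 487 in SHAM, with 9 of 11 BDL animals below the SHAM mean. Means were 389 ± 37 and 428 ± 45 (-0.15 ± 0.06, p = 0.0254, adjusted p = 0.881), and without the 3 libraries the log2 fold change was -0.16 ± 0.07. CNTN1, a cell adhesion molecule of axons, lies on chromosome 5 at 72168496 to 72495454. It had 557, 669 and 800 CPM in BDL and 650, 747 and 847 in SHAM, with 10 of 11 BDL animals below the SHAM mean. Means were 668 ± 71 and 741 ± 68 (-0.13 ± 0.06, p = 0.0325, adjusted p = 0.881). Without the 3 libraries CNTN1 was at -0.08 ± 0.06 (p = 0.187), so its unadjusted p passed 0.05 only with them.

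FAT2, a giant cadherin of parallel fibres, had 221, 328 and 448 CPM in BDL and 240, 353 and 584 in SHAM (-0.22 ± 0.13, p = 0.0994). BDL 8 and BDL 2 were the lowest animals and SHAM 1 the highest, and without BDL 2, 4 and 8 the log2 fold change was -0.10 ± 0.12. RELN, the secreted guide of neuronal layering that granule cells make, had 552, 688 and 757 CPM in BDL and 519, 714 and 939 in SHAM. Its mean was 677 ± 61 against 734 ± 110 (-0.12 ± 0.08, p = 0.135), with 10 of 11 BDL animals below the SHAM mean. The SHAM median of 714 was below that mean as well, so most SHAM animals were too. Without BDL 2, 4 and 8 the log2 fold change of RELN was -0.09 ± 0.08 (p = 0.291).

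CBLN3 was 1 of 3 mature members on the higher side. Cerebellins are secreted by granule cells and bridge parallel fibres to Purkinje cells, and CBLN3 is specific to granule neurons. It had 757, 941 and 1128 CPM in BDL and 794, 877 and 1032 in SHAM, with 8 of 11 BDL animals above the SHAM mean. Means were 948 ± 109 and 882 ± 61 (0.10 ± 0.06, p = 0.0995, adjusted p = 0.881), and without the 3 libraries the log2 fold change was 0.05 ± 0.06. CBLN1, the partner that CBLN3 assembles with, had 1282, 1474 and 1667 CPM in BDL and 1275, 1500 and 1675 in SHAM, means of 1476 ± 134 and 1474 ± 129.

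SLC17A7 and RBFOX3, 2 general genes of the mature neuron, had estimates near 0. SLC17A7, the vesicular glutamate transporter VGLUT1, had 519, 626 and 712 CPM in BDL and 475, 652 and 743 in SHAM (-0.04 ± 0.07, adjusted p = 0.933; chromosome 6, 54511121 to 54521616). RBFOX3, the splicing factor known as NeuN, had 174, 211 and 250 and 157, 221 and 272 (-0.01 ± 0.08, adjusted p = 0.985). SLC17A6, the transporter VGLUT2 of younger granule cells and deep nuclei, was at 17.1 ± 3.9 and 16.5 ± 5.6 CPM (0.12 ± 0.16, and 0.06 ± 0.16 without BDL 2, 4 and 8). SLC17A7 was at -0.07 ± 0.07 without them.

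A separate list of 12 other mature granule neuron genes had 2 higher and 10 lower in BDL, with 0 called and 3 at an unadjusted p under 0.05. Over all genes 49.7% were lower and 4.96% reached that p, and the counts of this list are not read as a result. RIMS1, an active zone protein, averaged 187 ± 24 CPM in BDL and 226 ± 35 in SHAM (-0.28 ± 0.09, p = 0.00303), and KCND2, a potassium channel subunit, at 152 ± 31 and 184 ± 26 (-0.27 ± 0.11, p = 0.0200). Both had an adjusted p of 0.881. RIMS1 was at -0.22 ± 0.08 (p = 0.0137) and KCND2 at -0.14 ± 0.08 (p = 0.101) without BDL 2, 4 and 8. The median of the list was -0.07, and -0.10 with 1 higher and 11 lower without the 3 libraries. The list is not independent of what was already known of these libraries, where granule markers had been seen on the lower side.

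Markers of the other cells of the tissue were set beside these counts. Purkinje cell genes split 6 higher and 7 lower (median -0.01), with DAB1, the adaptor of the reelin pathway, at -0.12 ± 0.04 and PCP2 at 0.15 ± 0.08. Inhibitory interneuron genes had 2 higher and 7 lower (median -0.07), and Bergmann glia and astrocyte genes 2 higher and 6 lower (median -0.09). All 8 measured oligodendrocyte genes were on the higher side (median 0.18), 0 at an unadjusted p under 0.05. Without BDL 2, 4 and 8 the splits were 8 higher and 5 lower for Purkinje cells, 7 and 2 for interneurons, 5 and 3 for glia and 8 and 0 for oligodendrocytes, so the side of the first 3 lists turned with these libraries. The summed level of the oligodendrocyte genes was 5058 to 28762 CPM in BDL and 7263 to 25125 in SHAM, and none of the 8 was at 0. The part of this cell mix in the lower side of the mature genes was not tested.

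How much a gene varied among animals differed widely within the lineage. The standard deviation of log2 CPM over 22 animals was 0.83 for MEIS2, 0.69 for SFRP1, 0.62 for DCX, 0.46 for NFIA, 0.44 for ATOH1 and 0.44 for GLI2. ZIC2 (0.092) and PAX6 (0.099) varied least, and the median of all genes was 0.20. ZIC2 stayed between 433 and 541 CPM in all 22 animals, while DCX spanned a 4.16-fold range. These standard deviations include counting error, which is larger for genes with few counts such as MEIS2, ATOH1 and GLI2.

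DCX, NFIA and FAT2 went together across animals, a set picked after their values were seen. Over 22 animals Pearson's r was 0.89 for DCX and NFIA (Spearman's rho 0.84), 0.79 for NFIA and FAT2 (rho 0.61) and 0.54 for DCX and FAT2 (rho 0.41). The permutation p values were 1e-05, 4e-05 and 0.00917 (adjusted over 7 pairs 2.33e-05, 5.6e-05 and 0.0107), where 1e-05 is the smallest that 100000 resamples can give. The p values of rho were 1e-05, 0.00331 and 0.0625 (adjusted 3.5e-05, 0.00463 and 0.0729). Leaving out the 2 animals farthest from the median gave 0.83, 0.65 and 0.38, so the relation of DCX and FAT2 rests on those animals. Without BDL 2, 4 and 8 the values were 0.77, 0.63 and 0.17.

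DCX spans 326.9 kb on chromosome X (91317671 to 91644572), NFIA 395.8 kb on chromosome 6 (150834002 to 151229773) and FAT2 83.2 kb on chromosome 16 (71448491 to 71531664). An index of long genes was therefore taken per library, the median log2 deviation from the mean of 1027 genes with a span of at least 200 kb, none of them a member. It was -0.19, -0.12 and -0.11 in BDL 2, BDL 4 and BDL 8, and -0.06 to 0.17 in the other 19. Genes of at most 20 kb were high in the same 3 libraries, at 0.11, 0.08 and 0.09, against -0.12 to 0.06 elsewhere.

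The 10 members with a span of at least 200 kb were not all low in these libraries. DCX, NFIA and CNTN1 were lower in BDL 2, BDL 4 and BDL 8 than in any of the other 19, and GLI2 and RELN were below the median of the 19 in all 3. NFIB and ETV1 went the other way, above that median in all 3, and highest of the 22 animals in BDL 2, at 95.7 CPM (49.3 to 85.8 in the 19) and 641 CPM (448 to 624). CADPS2, 494.7 kb long, had 388, 375 and 447 CPM in the 3 against 334 to 487, and GLI3 had 17.4, 14.6 and 13.3 against 12.3 to 19.04. MEIS2 was below the median of the 19 in BDL 2 and BDL 4 only.

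The index went with NFIA at r = 0.94 (rho 0.91, both p = 1e-05), with DCX at 0.82 (rho 0.80, p = 1e-05 and 2e-05) and with FAT2 at 0.80 (rho 0.70, p = 2e-05 and 0.00051). Adjusted p values of r were 2.33e-05, 2.33e-05 and 3.5e-05. These pairs were chosen after the values were seen, and the adjustment does not correct for that choice. Of the members with a span of at least 200 kb, only DCX and NFIA were paired with the index. NFIB and ETV1, which went the other way, and CNTN1 were not. For NFIA the r with the index was 0.93 within BDL, 0.96 within SHAM, 0.90 without the 2 animals farthest from the median and 0.88 without BDL 2, 4 and 8. For DCX the corresponding values were 0.89, 0.56, 0.74 and 0.64, and for FAT2 0.73, 0.89, 0.76 and 0.68. ATOH1, 2.39 kb long, gave -0.16 (rho -0.04, p = 0.482 and 0.875). The cause of the spread of this index was not tested.

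**Figure D3:**
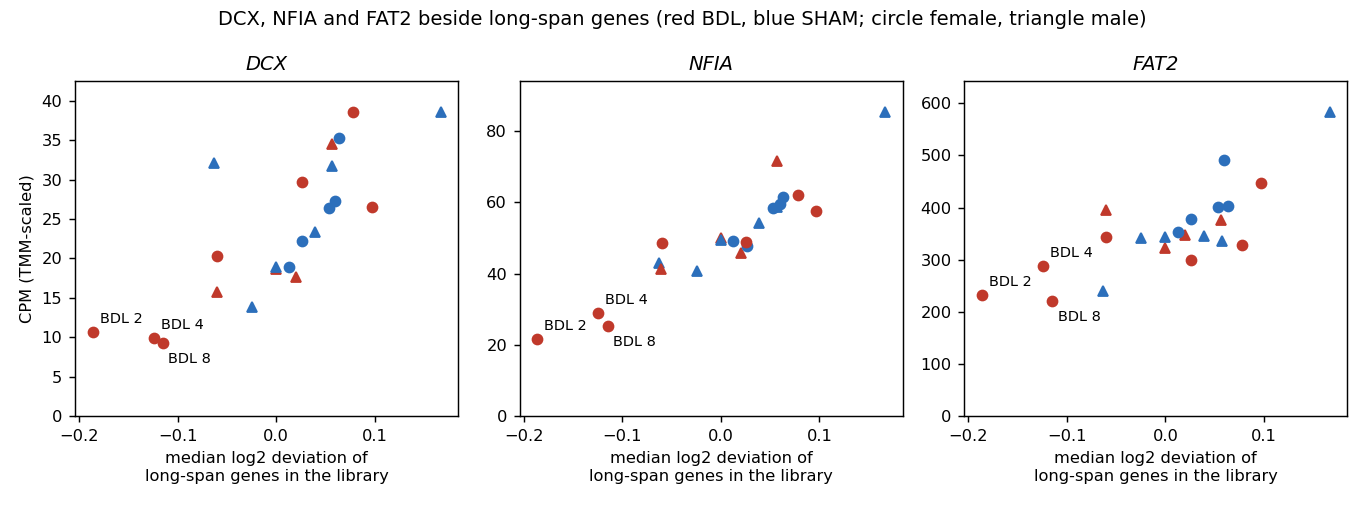
CPM of DCX, NFIA and FAT2 (y axis from 0) against the median log2 deviation of genes with a span of at least 200 kb in the same library (x axis), 1 point per animal, red BDL and blue SHAM, circles female and triangles male. BDL 2, BDL 4 and BDL 8 lie at the lower left of each panel and SHAM 1 at the upper right, with r = 0.82, 0.94 and 0.80.

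Of 24 pairs of genes set for correlation over the 22 animals, 6 had an adjusted permutation p of r under 0.05. In 3 of the 24, TOP2A took the place of MKI67, which had no identifier in the name table. ATOH1 varied with TOP2A across animals (r = 0.68, p = 0.00049, adjusted p = 0.00294; rho = 0.67, p = 0.00083, adjusted p = 0.0130). The value was 0.58 within BDL, 0.82 within SHAM and 0.56 (p = 0.00967) without SHAM 4 and BDL 2, the animals farthest from the median of ATOH1. MYCN varied with it as well (r = 0.73, p = 0.00012, adjusted p = 0.00256; rho = 0.67, p = 0.0011, adjusted p = 0.0130), with 0.78 within BDL, 0.70 within SHAM and 0.59 (p = 0.00593) without BDL 4 and SHAM 4.

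ATOH1 and SLC17A7, from the opposite ends of the lineage, went in opposite directions across animals (r = -0.69, p = 0.00032, adjusted p = 0.00256; rho = -0.59, p = 0.00482, adjusted p = 0.0289). The value was -0.55 within BDL, -0.79 within SHAM and -0.63 (p = 0.00249) without SHAM 4 and BDL 2. Per standard deviation of animal number, edgeR gave -0.22 ± 0.10 (p = 0.0279) for ATOH1 and 0.06 ± 0.03 (p = 0.0544) for SLC17A7. The correlation was not adjusted for animal number or sex, and their part in it was not tested. SHAM 4 had the highest ATOH1, MYCN and TOP2A and the lowest SLC17A7, RBFOX3 and CBLN1 of the 22 animals. CBLN1 and CBLN3 varied together (r = 0.71, p = 0.00028, adjusted p = 0.00256; rho = 0.64, p = 0.00162, adjusted p = 0.0130), at 0.90 within BDL, 0.57 within SHAM and 0.61 (p = 0.00441) without the 2 farthest animals.

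For the other 2 pairs the p of r was above 0.05 without the 2 farthest animals. NHLH1 and DCX had r = 0.60 (p = 0.00211, adjusted p = 0.0101; rho = 0.43, p = 0.0484, adjusted p = 0.133), and 0.37 (p = 0.105) without BDL 8 and SHAM 9. Within SHAM it was 0.85 (adjusted p = 0.0206; rho = 0.83, adjusted p = 0.0347) and within BDL 0.55 (adjusted p = 0.313). RBFOX3 and SLC17A7 had r = 0.55 (p = 0.0072, adjusted p = 0.0288; rho = 0.55, p = 0.00965, adjusted p = 0.0463), and 0.41 (p = 0.0701; rho = 0.49, p = 0.0299) without SHAM 4 and SHAM 1. It was 0.67 (adjusted p = 0.0114) without BDL 2, 4 and 8, 0.27 within BDL and 0.72 within SHAM. SLC17A7 and MBP, the myelin gene of oligodendrocytes, had no detectable relation across animals (r = 0.10, p = 0.645, adjusted p = 0.774; rho = 0.10, p = 0.661), and the part of other cell types in these relations was not tested.

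No relation was detected between GLI1 and the genes it was paired with. With PTCH1, a target of the same pathway, r was -0.08 (p = 0.718; rho = -0.13, p = 0.569), and with SHH 0.02 (p = 0.925; rho = 0.09, p = 0.678). With ATOH1 it was -0.30 (p = 0.169; rho = -0.41, p = 0.0593) and with TOP2A -0.16 (p = 0.466; rho = -0.16, p = 0.481). Over all 7 pairs with GLI1 the lowest adjusted p was 0.406 for r and 0.142 for rho. GLI1 had 66 to 144 counts and SHH 20 to 51 per library, which limits the correlation that could be seen at this depth.

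**Figure D4:**
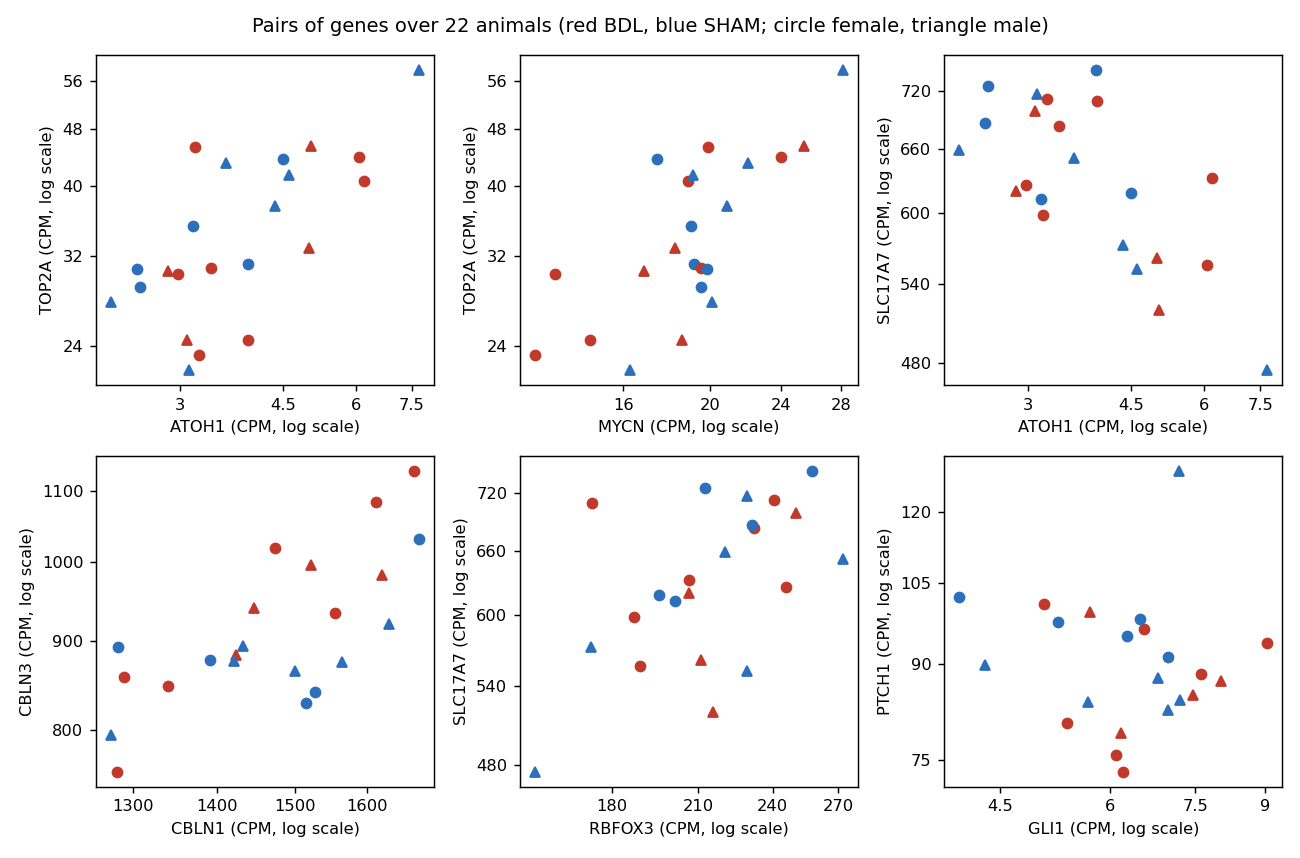
CPM of 6 pairs of genes in the 22 animals on log axes, red BDL and blue SHAM, circles female and triangles male. ATOH1 and MYCN go with TOP2A (r = 0.68 and 0.73), ATOH1 goes against SLC17A7 (-0.69), CBLN1 goes with CBLN3 (0.71) and RBFOX3 with SLC17A7 (0.55), and GLI1 and PTCH1 show no relation (-0.08); SHAM 4 is the animal with the most ATOH1.

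No difference between the sexes was detected for these genes. Of the 37 members 0 were called between females and males, against 9 of 14994 genes (0.06%), and 0 had an unadjusted p under 0.05 (5.97% of all genes). The smallest p was that of SLC17A7, higher in females by a log2 fold change of 0.14 ± 0.07 (p = 0.0562, adjusted p = 0.832). PAX6 was at -0.08 ± 0.04, NHLH1 at -0.20 ± 0.11 and NHLH2 at -0.15 ± 0.10.

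The difference between the effect of BDL in females and in males was tested in a model of the 4 groups. It was called for 0 of 37 members and 0 of 14994 genes (0%), with 1 member and 4.60% of all genes at an unadjusted p under 0.05. That member was MEIS1, at 0.18 ± 0.08 in females and -0.11 ± 0.09 in males (difference 0.29 ± 0.12, p = 0.0198, adjusted p = 0.917). In females MEIS1 had 77.1 to 114 CPM in BDL and 76.1 to 91.5 in SHAM, and in males 85.4 to 88.8 and 79.1 to 103. The next were SLC17A6 (0.39 ± 0.20 in females, -0.21 ± 0.21 in males, p = 0.0510), NHLH2 (0.13 ± 0.12 and -0.24 ± 0.14, p = 0.0564) and MEIS2 (-0.76 ± 0.46 and 0.31 ± 0.52, p = 0.139). With BDL 2, 4 and 8 left out, which leaves 4 BDL females, MEIS1 was at 0.07 ± 0.08 in females (difference 0.19 ± 0.11, p = 0.107), SLC17A6 at 0.34 ± 0.22 and MEIS2 at -0.41 ± 0.48. NHLH2 was then at 0.24 ± 0.13 in females and -0.24 ± 0.13 in males (difference 0.48 ± 0.18, p = 0.0162), the 1 member at an unadjusted p under 0.05, and it was not called.

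Within males the groups did not overlap for 2 members, NHLH2 and PAX6, beside 0.68% of all genes. NHLH2 had 6.82 to 7.90 CPM in the 4 male BDL animals and 8.12 to 9.80 in the 6 male SHAM animals, and PAX6 had 172 to 183 and 184 to 200. Within females 0 members had ranges apart (0.187% of all genes). FAT2 in females was at -0.39 ± 0.17 and in males at -0.02 ± 0.19, a difference that was not called (-0.38 ± 0.26, adjusted p = 0.917). With BDL 2, 4 and 8 left out, which are all among the 7 female BDL animals, FAT2 in females was at -0.19 ± 0.18 and the difference at -0.17 ± 0.25.

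**Figure D5:**
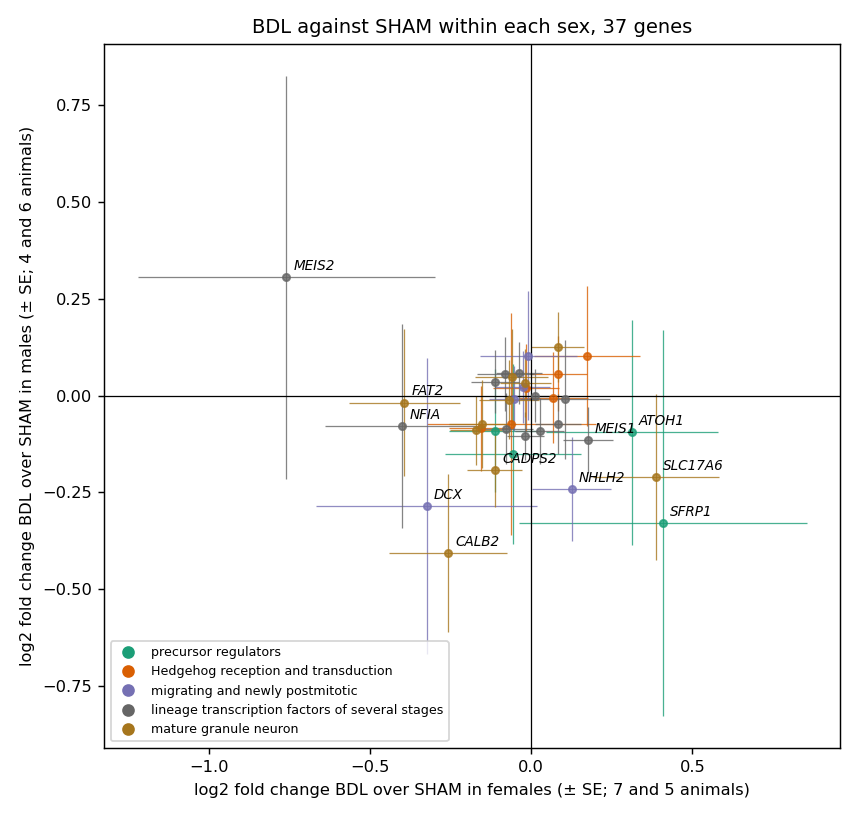
Log2 fold change of BDL over SHAM in females (x axis, 7 and 5 animals) against males (y axis, 4 and 6 animals) for the 37 genes, with lines of ± SE, coloured by role. CALB2 and CADPS2 are below 0 in both sexes; MEIS1, SLC17A6 and NHLH2 are above 0 in females and below it in males, and MEIS2 the reverse.

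The labelled body weight, whose unit is not given, was read per standard deviation with sex and treatment in the model. It was called for 0 members and 0 genes (0%), while 4 members and 7.39% of all genes had an unadjusted p under 0.05. CBLN1 was lower in heavier animals (-0.08 ± 0.03 per standard deviation, p = 0.00752, adjusted p = 0.499), and CBLN3 likewise (-0.06 ± 0.03, p = 0.0478). NHLH2 (0.13 ± 0.05, p = 0.00969) and PTCH1 (0.08 ± 0.04, p = 0.0404) were higher.

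The animal number in the titles is the only label of order, and what it stands for is not given. It was called for 0 members and for 11 of 14994 genes (0.0734%), and 5 members and 10% of all genes had an unadjusted p under 0.05. CADPS2 (0.08 ± 0.03 per standard deviation, p = 0.00898, adjusted p = 0.359) and CALB2 (0.15 ± 0.06, p = 0.0219) were higher at higher numbers. GLI3 (-0.08 ± 0.04, p = 0.0259) and ATOH1 (-0.22 ± 0.10, p = 0.0279) were lower, and GLI1 (0.12 ± 0.05, p = 0.0330), the fifth, was higher. With the number in the model the effect of BDL was -0.29 for CALB2 and -0.13 for CADPS2.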

How the data were processed

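Whole cerebellar RNA of 22 piglets was sequenced as 150 bp read pairs, per the labels' protocols. The authors deposited raw counts of reads, whole numbers listed by Ensembl gene in a table for each animal, without normalization. Trim Galore, HISAT2, HTSeq, DESeq2 and the build Sscrofa11.1 are named in the submitters' processing notes. Their versions and the counting's strand setting: not given in the sources used here. The 5 lines of each table that name no gene held 29.9% to 34.6% of reads and were left out. Symbols were matched to 15029 of 31907 identifiers, and positions came from a RefSeq table of Sscrofa11.1, where TUBB3 had no entry. Over 231 pairs of libraries the chi-square per degree of freedom was 7.20 to 51.9, so none looked like a library deposited again.

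Genes were filtered with filterByExpr (minimum count 10, minimum total 15), scaled by TMM and tested in edgeR 4.0.16 (R 4.3.3) by a robust quasi-likelihood fit on sex and treatment, with Benjamini-Hochberg adjustment over 14994 genes and a threshold of 0.05. The test was checked on simulated counts. Intervals are at 95% confidence. Where nothing states separate litters, p-values measure the spread between these samples. The interaction came from a model of the 4 groups of sex and treatment. Correlations used log2 CPM (prior count 2) and two-sided permutation tests with 100000 resamples (NumPy 2.4.6), adjusted over 24 pairs, and separately over 7 pairs added after values were seen. Alternatives used other scalings and filters, limma-voom (limma 3.58.1), DESeq2 1.42.0, other covariates, each sex alone, each animal left out, and BDL 2, 4 and 8 left out together, also in the model of the 4 groups.

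The members and all gene lists were chosen with earlier results of these data known. Values by group are given for 12 members named beforehand and for the 10 with the smallest p. For some of these the mean and SD, the fold change or the adjusted p is left out. Up to 4 members are named for each other contrast and up to 2 genes by smallest p for each other list. Genes not picked by p are named as well, from the lists of ligands, cell cycle, Purkinje cells, choroid plexus and brainstem among others. DCX and SFRP1 are described further because 1 to 3 libraries decide their values. Other additions are GLI1 under animal number as the last of 5, and SLC17A7 for that label beside ATOH1. NHLH2 and PAX6 within males, FAT2 within females, HHIP by sex and the choroid plexus genes beside SFRP1 were added as well. DCX, SFRP1 and these additions were chosen after their values were seen.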

Additional observations from a re-analysis of the deposited data

Results flagged for a closer look

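Each member was examined within the 4 groups of sex and treatment for an animal whose gap to its nearest neighbour was large for the range of its group (Dixon's 95% critical value). This marked 14 of 148 groups, or 9.46%. The critical value is set to mark about 1 in 20 of independent groups of normally distributed values, which CPM of these genes need not be. The share over all genes was not taken, so 9.46% is not read as an excess. SHAM 2 was marked for 4 genes: it was the highest female SHAM animal for BARHL1 (69.2 CPM, the next at 44.0), SFRP1 (20.1, next 10.3) and SMO (44.4, next 35.6), and the lowest for MEIS1 (76.1, next 88.5). SHAM 1 was the highest male SHAM animal for 3 genes, PTCH1 (130 CPM, next 89.8), GLI3 (18.2, next 14.5) and FAT2 (584, next 345). SHAM 6 was the highest female SHAM animal for ZIC2 (513 CPM, next 476) and RELN (897, next 714), and SHAM 8 for CALB2 (59.1, next 45.4). BDL 6 was the highest male BDL animal for DCX (34.5 CPM, next 18.6) and the lowest for ZIC2 (464, next 475). BDL 4 was the highest female BDL animal for SFRP1 (46.1 CPM, next 21.6), and BDL 8 the lowest for NHLH1 (17.1, next 31.7). SHAM 1 also had the highest index of long genes, 0.17.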

How the results depend on the processing

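Over 36 alternatives, 22 of them leaving out 1 animal, 1230 of 1331 log2 fold changes of BDL against SHAM kept their direction, 17 members kept it in every one, and no member passed (lowest adjusted p 0.712). Leaving out each animal in turn, edgeR called 0 genes, and 2 to 5 members had an unadjusted p under 0.05 (5 without SHAM replicate 4). DESeq2 called 1 gene of 14994, TPD52L1, which is no member (log2 fold change 0.68, adjusted p = 0.0410, 769 genes at an unadjusted p under 0.05), and limma-voom called 0 (724). In males alone 1 member had an unadjusted p under 0.05. Between the sexes, 31 genes were called with no count filter, and 1 member had an unadjusted p under 0.05 by limma-voom. The cause of these differences was not tested. Log2 fold changes that reversed, most of them near 0, follow by setting. Without BDL 2, 4 and 8 together, which was chosen after seeing the data, they were SFRP1 -0.20, GLI2 0.015, TUBB3 0.0033, ZIC1 0.027, ZIC2 -0.021, ZIC5 -0.018, MEIS1 -0.025, NFIB -0.018, NEUROD2 -0.015, RBFOX3 0.0050, CBLN1 -0.047. With animal number in the model they were SFRP1 -0.059, BOC -0.0085, TUBB3 0.0050, and with body weight SFRP1 -0.019, BOC -0.00041, CBLN1 -0.00015. In females alone they were BOC -0.018, NHLH1 -0.0096, NHLH2 0.12, NEUROD2 -0.040, ETV1 0.024, CBLN1 -0.020. In males alone they were ATOH1 -0.095, SFRP1 -0.33, GLI3 -0.0056, TUBB3 0.021, ZIC1 0.056, ZIC2 -0.00029, ZIC5 -0.073, MEIS1 -0.11, MEIS2 0.31, NFIB -0.0097, NFIX 0.035, RBFOX3 0.047, SLC17A6 -0.21. By limma-voom SFRP1 -0.062 reversed, with total count BOC -0.0027 and with upper-quartile factors TUBB3 0.00054. With 1 animal left out, 11 members changed sign at least once, over the ranges BOC -0.030 to 0.029, CBLN1 -0.017 to 0.034, GLI2 -0.18 to 0.059, NEUROD2 -0.017 to 0.030, NHLH1 -0.0036 to 0.10, RBFOX3 -0.048 to 0.028, SFRP1 -0.24 to 0.19, TUBB3 -0.030 to 0.021, ZIC1 -0.046 to 0.0088, ZIC2 -0.0096 to 0.023, ZIC5 -0.010 to 0.032. SFRP1 did so only without BDL replicate 4. Correlations whose adjusted p rose to 0.05 or above were, within BDL, ATOH1-TOP2A 0.58, MYCN-TOP2A 0.78, NHLH1-DCX 0.55, ATOH1-SLC17A7 -0.55, RBFOX3-SLC17A7 0.27; within SHAM, MYCN-TOP2A 0.70, CBLN1-CBLN3 0.57, RBFOX3-SLC17A7 0.72, DCX-FAT2 0.29, long genes-DCX 0.56. Without the 2 farthest animals they were ATOH1-TOP2A 0.56, NHLH1-DCX 0.37, RBFOX3-SLC17A7 0.41, DCX-FAT2 0.38, and without BDL 2, 4 and 8 DCX-FAT2 0.17. Each group holds 11 of the 22 animals. Correlations that changed sign were, within BDL, GLI1-PTCH1 0.037, GLI1-GLI2 -0.098, NEUROD1-ATOH1 -0.43, NEUROD1-SLC17A7 0.28, SLC17A6-SLC17A7 0.14, SLC17A7-MBP -0.13, MEIS1-PAX6 -0.41; within SHAM, GLI1-SHH -0.014, ATOH1-BARHL1 -0.023, CALB2-EOMES 0.073, GLI1-GFAP -0.035. Without the 2 farthest animals they were GLI1-PTCH1 0.048, SLC17A7-GABRA6 -0.016, SLC17A7-MBP -0.025, and without BDL 2, 4 and 8 GLI1-GFAP -0.019, long genes-ATOH1 0.010. Genes with few counts, MEIS2, ATOH1, GLI1 and GLI2, are limited by depth.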
